A study of Arabidopsis thaliana with 6 samples.

Results

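DIN2, DIN10, ASN1, DYL1, AT2G33830, SIP2, GDH1, BCAT-2, MCCA and MCCB are Arabidopsis thaliana genes known as markers of low carbon supply, or enzymes that salvage carbon and nitrogen when sugar runs short. The 10 genes were picked by name, with their levels in the comparison described here already known. All 10 had a single row among the 32921 named rows of the count tables, and all 10 passed the filter on low counts. Because of how they were picked, their differences between groups are given as a description and no test of those differences is read. The samples were whole seedlings of wild-type Arabidopsis, the crucifer used as a model plant, grown from seed on half-strength MS agar without added sugar in the listed recipe and wrapped in foil against light. The control group was exposed to background white noise at 10 dB on average for 48 h, and the traffic noise group to recorded urban traffic noise at 75 dB on average for the same time. Each group had 3 libraries. Both groups shared the darkness, the sealed plates and the sound-proof chamber, and the type of sound changed together with its level, so these cannot be told apart.

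In a plant cell with little sugar, the protein kinase SnRK1 becomes active and, partly through bZIP transcription factors of the C and S1 groups, switches on genes that free carbon from stored sugars, cell wall sugars, lipids and amino acids. Genes first isolated as "dark-inducible" (DIN) belong to this response: darkness induces them in leaves and supplied sugar holds them down. Breakdown of leucine, isoleucine and valine in mitochondria is part of the same programme and feeds electrons to respiration. Asparagine, made by ASN1, carries the freed nitrogen with little carbon.

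The 300 bases before the annotated gene starts of the 4 most abundant members are shown because sugar-responsive promoters are known for a few short elements, which are set in capitals where they occur. The letters searched on both strands were CACGTG (the G-box, a bZIP target), ACTCAT (known from the sugar-responsive proline dehydrogenase promoter), TATCCA (a sugar response element known from rice amylase promoters), TTATCC (known from sugar-repressed genes of Arabidopsis buds) and AATATCT (the core of the evening element of clock-controlled promoters). Both sugar elements from amylase and bud promoters match, overlapping, wherever a T stands before TATCCA. Sequences are from RefSeq's TAIR10.1 assembly, 5′ to 3′ on the strand of the gene. The window of DYL1 (minus strand) is chr1:9935441-9935740, that of AT2G33830 (minus strand) chr2:14310609-14310908, that of DIN10 (plus strand) chr5:6833264-6833563 and that of ASN1 (minus strand) chr3:17441432-17441731.
DYL1: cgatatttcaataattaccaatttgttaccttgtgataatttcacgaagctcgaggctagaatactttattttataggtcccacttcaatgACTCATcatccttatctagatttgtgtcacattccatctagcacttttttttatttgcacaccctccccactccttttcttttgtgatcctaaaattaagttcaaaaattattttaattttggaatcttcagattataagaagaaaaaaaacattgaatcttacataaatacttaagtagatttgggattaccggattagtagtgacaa
AT2G33830: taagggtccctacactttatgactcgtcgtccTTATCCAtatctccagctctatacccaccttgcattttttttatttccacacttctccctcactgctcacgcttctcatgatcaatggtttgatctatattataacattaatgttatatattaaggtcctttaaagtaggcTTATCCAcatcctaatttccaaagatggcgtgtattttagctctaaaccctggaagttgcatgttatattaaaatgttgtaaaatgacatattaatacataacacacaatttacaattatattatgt
DIN10: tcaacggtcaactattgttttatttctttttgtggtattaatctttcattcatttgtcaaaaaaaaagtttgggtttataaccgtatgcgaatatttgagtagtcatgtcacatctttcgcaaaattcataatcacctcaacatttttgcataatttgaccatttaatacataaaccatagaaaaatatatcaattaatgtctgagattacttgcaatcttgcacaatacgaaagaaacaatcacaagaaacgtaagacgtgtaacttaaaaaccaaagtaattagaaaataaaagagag
ASN1: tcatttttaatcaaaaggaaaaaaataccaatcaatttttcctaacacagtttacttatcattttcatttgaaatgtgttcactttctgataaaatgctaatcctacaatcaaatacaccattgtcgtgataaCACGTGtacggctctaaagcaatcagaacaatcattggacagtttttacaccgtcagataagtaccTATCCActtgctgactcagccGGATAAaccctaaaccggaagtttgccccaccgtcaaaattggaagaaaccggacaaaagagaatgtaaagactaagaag

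AT2G33830 held the overlapping amylase and bud elements at 2 places. ASN1 held the G-box once, the amylase element once and the bud element once on its reverse strand, at separate places. DYL1 had ACTCAT once, and DIN10 had none of the 5 strings in this window. Over all 10 members CACGTG was present in 3 (ASN1, SIP2 and GDH1), while 7.09% of 27437 windows of protein-coding genes held it. ACTCAT was in 2 (DYL1 and SIP2), against 14.8% of all windows. The amylase element was in 2 (ASN1 and AT2G33830), against 16.2% of all windows, and the bud element in the same 2, against 14.7%. AATATCT was in 0 members and in 11.8% of all windows. These are matches of letters in a short window, and binding was not measured. The windows of DYL1, ASN1 and MCCB also cover part of another annotated gene.

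The libraries were made with a kit that reads the 3′ ends of polyadenylated transcripts, and totals ran from 17540009 to 20780363 counts. Counts of such libraries do not grow with transcript length, so levels are given as CPM (counts scaled to library size by TMM) without a length term. Control replicate 3 stood apart, with counts on 16128 rows against 20026 to 20287 in the other libraries. The labels name no separate plates or seed batches for the replicates, so spreads and p-values measure only the variation between these samples, which may be technical. In whole seedlings, fewer cells of a type and less RNA per cell cannot be told apart. Seed storage markers summed to 23.3 to 69.0 CPM over 14 genes, most of it from OLEO3 at 19.4 to 62.5 CPM, and each of the others stood at 6.62 CPM or less. Root markers, at 2160 to 3394 CPM over 8 genes, and cotyledon and chloroplast markers, at 3048 to 6993 CPM over 8 genes, were present in every library. Most of the root sum came from TIP2;3, at 1726 to 2886 CPM. The defining root hair gene SHV2 was at 0 in every library, and EXPA7 and LRX1 were at 0 in most.

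Taken as means, 9 of the 10 genes were higher after traffic noise and GDH1 was level, but for most of them the ranges of the groups overlapped. The median log2 fold change of the members was 0.66 (edgeR), against 0.05 over the 19112 loci tested, of which 52.5% had a value above 0. The groups did not overlap for 3 members (DIN10, AT2G33830 and MCCA), with every traffic noise library above every control library, and overlapped for the other 7. Over all tested loci 8.99% were separated in that direction and 7.39% in the other. With the quasi-likelihood F test of edgeR (Benjamini-Hochberg, all loci), 0 members passed an adjusted p of 0.05, where 0% of all loci passed as higher and 0.0105% as lower. At an unadjusted p under 0.05 there were 3 members, all higher, while 665 of the 19112 loci were higher and 760 lower at that p. DESeq2 called 0 of the 7 members to which it gave an adjusted p (all but BCAT-2, SIP2 and GDH1), where it called 1.92% of loci as higher and 2.98% as lower. Nothing is read from these counts, since the same contrast was known when the genes were picked.

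**Figure D1:**
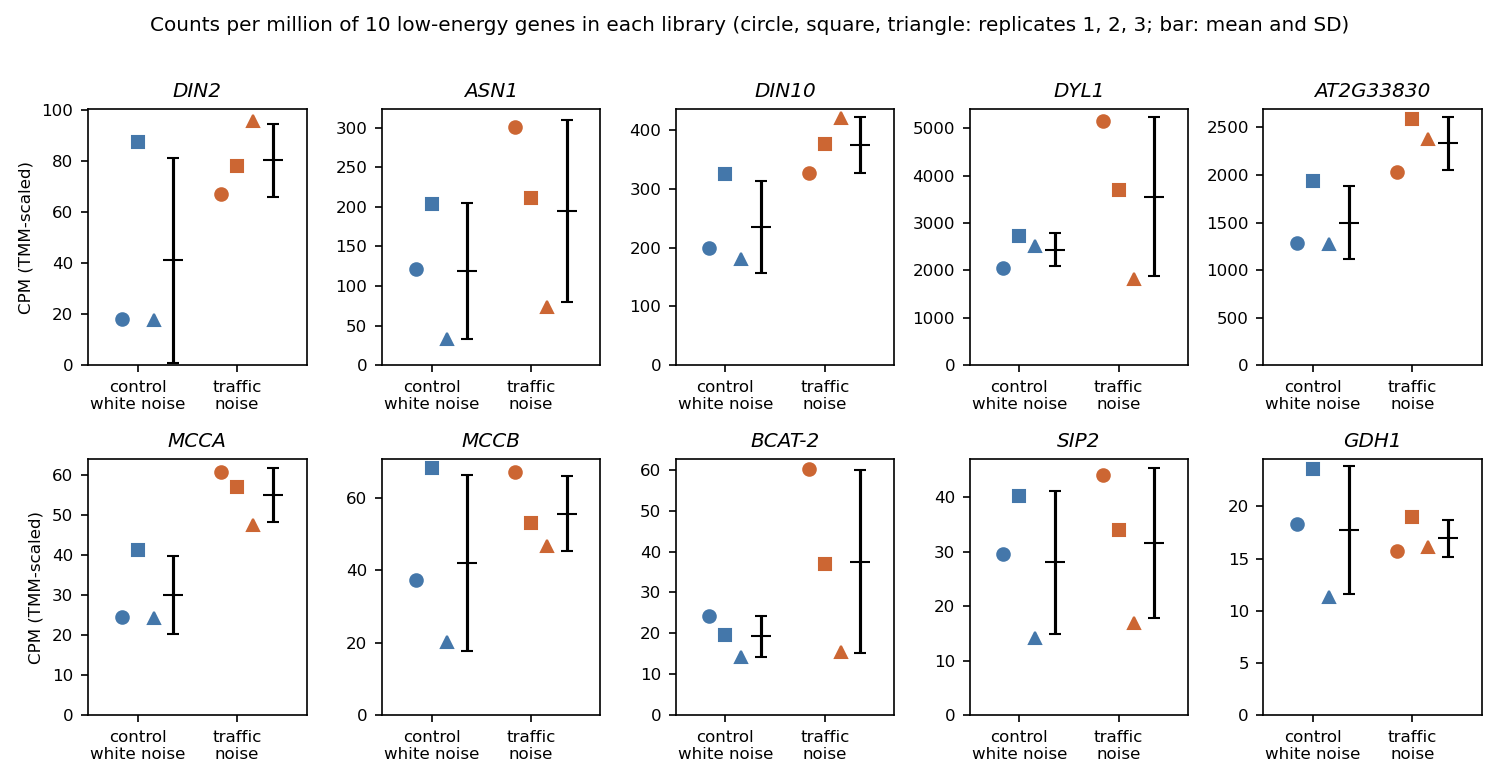
Level of each gene in every library, in TMM-scaled CPM on linear axes from 0 (circles, squares and triangles are replicates 1, 2 and 3, and the bar is the mean ± SD of 3 libraries). DIN10, AT2G33830 and MCCA are the 3 genes whose groups do not overlap, and DYL1 in traffic noise spans 1822 to 5155 CPM.

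DYL1 and AT2G33830 (also named DRM2) encode small proteins of the dormancy-associated family, known as markers of resting, sugar-depleted buds, and were by far the most abundant members. DYL1 was at 2050.5, 2732 and 2512 CPM in control replicates 1 to 3 and at 5155, 3687 and 1822 CPM in traffic noise replicates 1 to 3. Traffic replicate 1 was the highest of all 6 libraries and traffic replicate 3 the lowest, so the groups overlapped. The means were 2431 ± 348 and 3555 ± 1671 CPM (SD, n = 3), with a log2 fold change of 0.55 ± 0.32 (fitted value ± SE), which was 0.18 without traffic replicate 1 and 0.86 without traffic replicate 3. DYL1 ranked 28 and AT2G33830 ranked 55 by mean CPM among the 19112 tested loci. AT2G33830 was at 1280.3, 1941 and 1277 CPM in the 3 controls, against 2032, 2591 and 2376 CPM under traffic noise. Here the groups were separated, though control replicate 2 lay close under the lowest traffic noise library. Its means were 1500 ± 383 and 2333 ± 282 CPM, and its log2 fold change was 0.64 ± 0.23. The count of DYL1 per count of AT2G33830, a ratio within a library that needs no scaling, was 1.60, 1.41 and 1.97 in control and 2.54, 1.42 and 0.767 in traffic noise. The ratio thus varied more among the traffic noise libraries than among the controls, with means of 1.66 ± 0.284 and 1.58 ± 0.895.

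DIN2, DIN10 and SIP2 encode glycosidases. DIN2 is annotated as a beta-glucosidase-like protein, DIN10 as a member of the raffinose synthase family in glycosyl hydrolase family 36, and SIP2 as an alpha-galactosidase that splits raffinose into galactose and sucrose. DIN10 was at 199, 325 and 181 CPM in the 3 controls, against 326, 376 and 420.4 CPM under traffic noise. Control replicate 2 lay just under the lowest traffic noise library, and the other controls lay well below. The means were 235 ± 78.5 and 374 ± 47.0 CPM, with a log2 fold change of 0.67 ± 0.26. DIN2 was at 18.1, 87.6 and 17.7 CPM in the 3 controls, against 67.2, 78.3 and 95.6 CPM under traffic noise. A single library set the overlap of its groups: control replicate 2 was within the range of the traffic noise libraries, while control replicates 1 and 3 were below all of them. Its log2 fold change was 0.96 ± 0.55 with all libraries and 2.17 ± 0.29 without control replicate 2. Leaving out control replicate 1 or 3 instead lowered it, to 0.608 and 0.605. SIP2 showed no such shift, with 29.6, 40.2 and 14.2 CPM in the 3 controls, against 44.1, 33.9 and 16.9 CPM under traffic noise. Its log2 fold change was 0.17 ± 0.45, and -0.14 without control replicate 3 or without traffic replicate 1. Counts of DIN10 per count of SIP2 were 6.72, 8.07 and 12.7 in control and 7.40, 11.1 and 24.9 in traffic noise, with traffic replicate 3 the highest and control replicate 1 the lowest.

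ASN1, also known as DIN6, encodes the glutamine-dependent asparagine synthetase that darkness induces, and GDH1 a subunit of the mitochondrial glutamate dehydrogenase that returns carbon skeletons from glutamate. ASN1 was at 121, 203 and 32.6 CPM in the 3 controls, against 300.35, 211 and 73.0 CPM under traffic noise. It was the most variable member, with a 9.21-fold span from control replicate 3 to traffic replicate 1, and replicate 3 was the lowest library of each group. The means were 119 ± 85.4 and 195 ± 115 CPM, with a log2 fold change of 0.71 ± 0.60. That value was 0.26 without traffic replicate 1 and 1.34 without control replicate 2. GDH1 was at 18.3, 23.6 and 11.3 CPM in the 3 controls, against 15.7, 19.0 and 16.1 CPM under traffic noise, all within a 2.09-fold span. Its log2 fold change of -0.07 ± 0.39 was smaller than its standard error. Counts of ASN1 per count of GDH1 were 6.62, 8.62 and 2.89 in control and 19.1, 11.1 and 4.52 in traffic noise, with overlapping groups.

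BCAT-2, MCCA and MCCB were grouped as genes of branched-chain amino acid breakdown, which runs in mitochondria. BCAT-2 is a branched-chain aminotransferase that the annotation places in the chloroplast, and its part in that breakdown was not tested. MCCA (the biotin-bearing subunit) and MCCB form the mitochondrial methylcrotonyl-CoA carboxylase of leucine breakdown. MCCA was at 24.5, 41.2 and 24.2 CPM in the 3 controls, against 60.6, 56.8 and 47.3 CPM under traffic noise, with separated groups. Its means were 29.9 ± 9.72 and 54.9 ± 6.84 CPM, and its log2 fold change was 0.87 ± 0.30. MCCB, the partner subunit, was at 37.3, 68.1 and 20.3 CPM in the 3 controls, against 67.0, 53.0 and 46.8 CPM under traffic noise. Its highest library was a control, and its log2 fold change was 0.41 ± 0.40, or 0.08 without control replicate 3. Counts of MCCA per count of MCCB were 0.656, 0.605 and 1.19 in control and 0.904, 1.07 and 1.01 in traffic noise, so the subunit transcripts stood near equality in traffic noise and varied in control. BCAT-2 was at 24.1, 19.6 and 14.1 CPM in the 3 controls, against 60.3, 37.0 and 15.3 CPM under traffic noise. Traffic replicates 1 and 2 lay above all controls and traffic replicate 3 among them. Its log2 fold change was 0.96 ± 0.46, and 0.44 without traffic replicate 1. MCCA and BCAT-2 each overlap the 3′ end of a gene on the other strand with counts of similar size, AT1G03100 and AT1G10090. AT1G03100, the partner of MCCA, had 317, 570 and 364 counts in the 3 controls, against 894, 698 and 557 under traffic noise. AT1G10090, the partner of BCAT-2, had 421, 208 and 236 counts, against 601, 423 and 354. Both partners were highest in traffic replicate 1, as were MCCA and BCAT-2. The sources used here do not say whether counting used strand, so reads of these partners cannot be told apart.

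**Figure D2:**
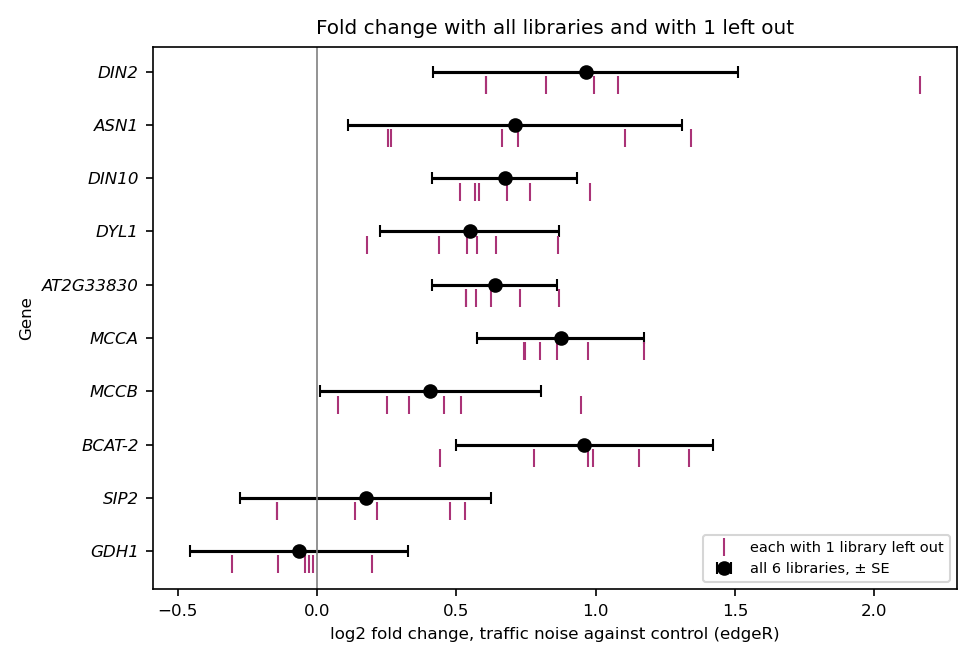
Log2 fold change of each gene, traffic noise against control, from edgeR with all 6 libraries (point, bar ± SE) and with each library left out in turn (ticks). AT2G33830, DIN10 and MCCA stay between 0.51 and 1.18, whereas DIN2 reaches 2.17 without control replicate 2 and SIP2 and GDH1 lie on both sides of 0.

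Among the controls the genes moved much alike, with replicate 2 the highest control for 9 of the 10, all except BCAT-2. Control replicate 3 was the lowest of the 6 libraries for 9 members, all except DYL1, while 38.2% of all tested loci, and 30.0% of the 5105 whose mean count reached 500, were lowest there. The same library held the most cotyledon and chloroplast marker counts, 6993 CPM against 3048 to 4629 CPM in the others, and their part in the result was not tested. In traffic noise the members differed more. Traffic replicate 3 was the lowest traffic noise library for 6 members, ASN1, DYL1, BCAT-2, SIP2, MCCA and MCCB. The first 4 of these were there at 0.62 to 0.77 below the gene's own mean on the log2 scale, whereas MCCA and MCCB were above theirs. DIN2 and DIN10 were highest there, at 0.96 and 0.53 above the mean. In traffic replicate 1 DYL1, ASN1, BCAT-2, MCCA and SIP2 were at their highest of all 6 libraries. Counts of DIN2 per count of DYL1 were 0.0130 in traffic replicate 1 and 0.0525 in traffic replicate 3. Without control replicate 3, members with a log2 fold change above 0 numbered 8 of 10.

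**Figure D3:**
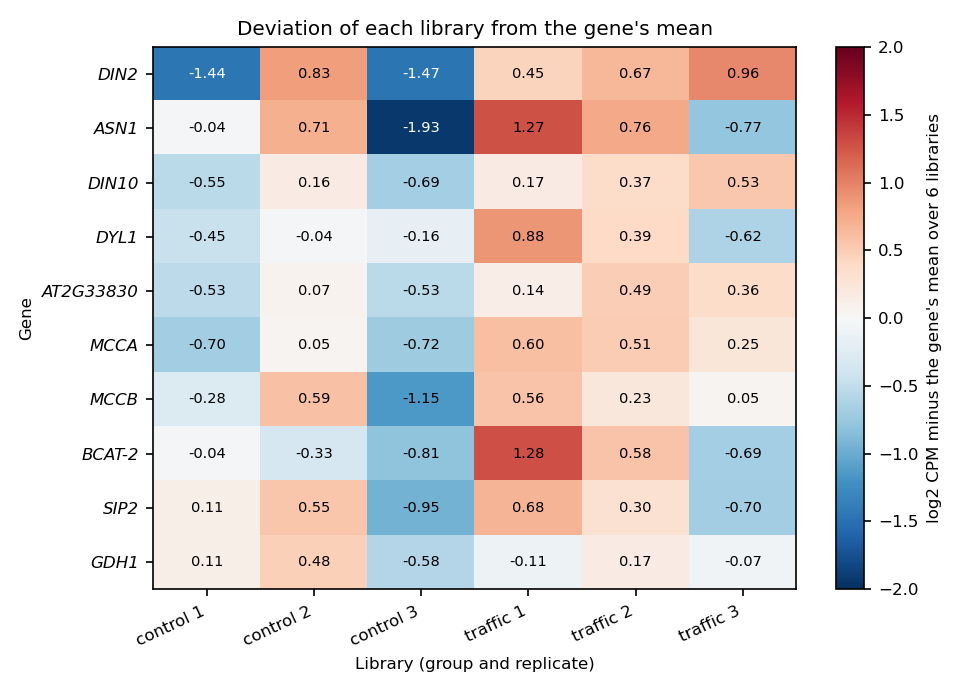
Heat map of log2 CPM minus the gene's mean over the 6 libraries (rows are genes, columns are libraries, and the numbers in the cells are the plotted values). Control replicate 3 is below the mean for all 10 genes, and traffic replicate 3 is below it for ASN1, DYL1, BCAT-2, SIP2 and GDH1 and above it for the other 5.

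Likeness between profiles was measured as the root mean square difference of centred log2 CPM over the 6 libraries. The closest members were DIN10 and AT2G33830, at 0.11, followed by AT2G33830 and MCCA at 0.22 and DIN10 and MCCA at 0.23. The most distant were DIN2 and BCAT-2, at 1.09. MCCA and MCCB, subunits of the same enzyme, differed by 0.36, and DYL1 and AT2G33830 of the same family by 0.53. Among 15623 other loci whose mean count reached 50, the nearest to DIN10 was AT1G68440, an uncharacterized protein gene, at 0.04, followed by the SAUR-like gene AT1G29450 at 0.06 and the microsomal glutathione S-transferase gene AT1G65820 at 0.08. The nearest to AT2G33830 were APG8A, an autophagy gene, at 0.055, the non-coding AT3G06125 at 0.07 and AT3G15450, annotated as an aluminium-induced protein with YGL and LRDR motifs, at 0.07. AT3G15450 was also close in level, at 1299.6, 1734.9 and 1256 CPM in the controls, against 2064, 2533 and 2155 CPM under traffic noise. The nearest to DYL1 were CYP71B6 at 0.12, the chaperone gene J20 at 0.16 and the phosphatidylinositol kinase family gene AT1G13640 at 0.16. These are descriptions of 6 libraries that share preparation and depth.

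By level, the order in control was DYL1, AT2G33830, DIN10, ASN1, MCCB, DIN2, MCCA, SIP2, BCAT-2 and GDH1. Only DYL1 over AT2G33830 and AT2G33830 over DIN10 were steps without overlap between neighbours, and from DIN10 downward each gene's control range overlapped that of the next. In traffic noise DYL1 and AT2G33830 overlapped, and the ranges were apart from AT2G33830 to DIN10 and from DIN10 to ASN1. DIN2 and MCCB only just missed each other, with the lowest DIN2 value at 67.2 CPM and the highest MCCB value at 67.0 CPM. The summed level of the 10 genes, of which DYL1 and AT2G33830 make up most, was 3803, 5482 and 4104 CPM in the controls, against 8129, 7143 and 4929 CPM under traffic noise.

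Other genes of the low-energy response were read from lists of genes chosen for their known roles, with earlier results of these data known. Counts from these lists are therefore a description, and no independent support is read from them. Of 16 further sugar starvation and dark-induced genes, 14 could be tested, whereas the symbols of SEN1 and TPS10 stood on several rows. By edgeR 0 of the 14 passed in either direction, 5 had an unadjusted p under 0.05, all higher, where 665 of all 19112 loci did, and 8 had all traffic noise libraries above all controls, where 8.99% of all loci did. Log2 fold changes were above 0 for 10 and below 0 for 4, with a median of 0.49. PP2-A13, a phloem protein gene, was at 45.9, 53.7 and 29.4 CPM in the 3 controls, against 82.5, 89.1 and 115 CPM under traffic noise. The adjusted p was 0.465 in edgeR (log2 fold change 1.15 ± 0.29) and 0.0157 in DESeq2. PP2-A13 overlaps AT3G61070, and reads of the pair cannot be told apart. The same limit holds for other named list genes that overlap an annotated gene. These are BCE2, DIN4, APG8A, APG8H, GDH3, CAB1, RCA, OLEO1, CASP1, GolS1, AGAL2, AT3G56310, AT1G56220 and TPS5. bZIP1, an S1-group factor that acts under low energy, was at 202, 250.2 and 211 CPM in the 3 controls, against 355, 338 and 268 CPM under traffic noise (edgeR log2 fold change 0.54 ± 0.21, adjusted p = 0.611). TPS9, a class II trehalose-phosphate synthase-like gene, was at 107 ± 30.8 and 165 ± 12.2 CPM (log2 fold change 0.62 ± 0.25, edgeR adjusted p = 0.612). DIN4, at 30.3 ± 3.67 and 28.6 ± 4.19 CPM, was level.

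The other steps of branched-chain amino acid breakdown were mixed. Of 19 tested genes, 10 had a log2 fold change above 0 and 9 below, with a median of 0.11. By edgeR 0 passed in either direction, and 3 had an unadjusted p under 0.05, all higher (665 of 19112 over all loci). DESeq2 called 1.92% of the 4365 loci with an adjusted p as higher and 2.98% as lower. On this list it called 1 of the 5 to which it gave an adjusted p. That gene was IVD, isovaleryl-CoA dehydrogenase, which acts just before methylcrotonyl-CoA carboxylase in leucine breakdown. It was at 34.4, 61.2 and 28.2 CPM in the 3 controls, against 67.7, 100.009 and 105 CPM under traffic noise, with separated groups. The adjusted p was 0.493 in edgeR (log2 fold change 1.14 ± 0.33) and 0.0444 in DESeq2. AT1G21400, annotated as a thiamin diphosphate-binding protein, was at 6.67, 18.2 and 15.4 CPM in the 3 controls, against 35.2, 20.8 and 36.9 CPM under traffic noise (edgeR log2 fold change 1.21 ± 0.44, adjusted p = 0.553). BCE2, also known as DIN3 and encoding the acyltransferase subunit of the branched-chain keto acid dehydrogenase, was at 24.7 ± 13.8 and 46.3 ± 1.72 CPM (log2 fold change 0.91 ± 0.38, edgeR adjusted p = 0.642). Control replicate 2 was the highest control for both IVD and BCE2. In DESeq2 fits with 1 library left out, IVD and PP2-A13 passed only without control replicate 2 or without traffic replicate 1.

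Autophagy delivers cell contents to the vacuole for reuse, and ATG8 proteins coat the vesicles that do so. All 9 ATG8 genes had a log2 fold change above 0, as did 52.5% of all loci, with a median of 0.63. For ATG8D (0.43 ± 0.52), ATG8G (0.06 ± 0.54) and ATG8H (0.03 ± 0.33) the value was smaller than its SE. Control replicate 3 was the lowest of the 6 libraries for 6 of the 9 genes, as for 38.2% of all tested loci. At an unadjusted edgeR p under 0.05 there were 5, all higher (665 of 19112 over all loci). In edgeR 0 passed, and in DESeq2 0 of the 5 that were given an adjusted p. ATG8B was at 5.99, 11.2 and 5.65 CPM in the 3 controls, against 18.8, 29.6 and 20.7 CPM under traffic noise (edgeR log2 fold change 1.60 ± 0.44, adjusted p = 0.493). ATG8F was at 86.1 ± 13.9 and 140 ± 20.9 CPM (log2 fold change 0.70 ± 0.23, edgeR adjusted p = 0.516), and APG8H at 39.4 ± 11.1 and 65.1 ± 4.35 CPM (log2 fold change 0.72 ± 0.27, edgeR adjusted p = 0.563). The groups were separated for these 3 of the 9 genes, with traffic noise above, as for 8.99% of all loci.

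Subunits of SnRK1 and its bZIP partners gave 9 values above 0 and 7 below among 16 tested genes, with a median of 0.29. In edgeR 0 passed and 2 had an unadjusted p under 0.05, all higher (665 of 19112 over all loci, with 760 lower). In DESeq2 0 of the 5 with an adjusted p passed. The groups were separated for 2 genes with traffic noise above and for 2 with it below, where 8.99% and 7.39% of all loci were. BZO2H3, a C-group bZIP factor known as a SnRK1 target, was at 7.60, 14.9 and 11.1 CPM in the 3 controls, against 31.3, 28.9 and 19.6 CPM under traffic noise (edgeR log2 fold change 1.25 ± 0.39, adjusted p = 0.493). bZIP1, described above, is on both this list and that of further sugar starvation and dark-induced genes, as are AKINBETA1 and BZIP53. BCE2 and DIN4 are on both that list and the branched-chain list. Counts from these lists therefore share genes. AKINBETA1, a regulatory subunit, was at 96.3 ± 16.8 and 131 ± 15.5 CPM (log2 fold change 0.44 ± 0.23, edgeR adjusted p = 0.751). Of 12 genes of asparagine, glutamate and proline turnover, 7 were above 0 and 5 below (median 0.16). In edgeR 0 passed and 0 had an unadjusted p under 0.05, and in DESeq2 0 of the 3 with an adjusted p passed. GDH2, the other main glutamate dehydrogenase gene, was at 33.6, 70.5 and 16.9 CPM in the 3 controls, against 77.6, 60.0 and 64.7 CPM under traffic noise (edgeR log2 fold change 0.74 ± 0.43, adjusted p = 0.805). GDH3 was lower in every traffic noise library than in every control, at 10.9 ± 6.64 and 4.01 ± 1.69 CPM (log2 fold change -1.44 ± 0.67, edgeR adjusted p = 0.684). ASPGB1, an asparaginase gene that uses up what ASN1 makes, was likewise separated, at 13.2 ± 3.64 and 7.60 ± 1.26 CPM (log2 fold change -0.79 ± 0.47, edgeR adjusted p = 0.806). Of the 12 genes, 3 were separated with traffic noise below and 1 with it above, where 7.39% and 8.99% of all loci were.

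In the remaining lists 0 genes passed in edgeR, where 1 had an unadjusted p under 0.05, higher in traffic noise (665 of 19112 over all loci). Of the 4365 loci with an adjusted p, DESeq2 called 1.92% as higher and 2.98% as lower. In these lists it called 1, among the 8 cotyledon and chloroplast markers with an adjusted p. That gene was CAB1, a light-harvesting protein gene among the chloroplast markers, at 366, 883 and 699.5 CPM in the 3 controls, against 1315, 1116 and 1292 CPM under traffic noise (DESeq2 adjusted p = 0.0482, edgeR 0.493), and DESeq2 called it only without control replicate 2 when 1 library was left out. Of the 8 tested cotyledon and chloroplast markers, 2 had values above 0 and 6 below (median -0.12). CAB2, also on this list, was at 174, 327 and 1411 CPM in the 3 controls, against 22.0, 239 and 778 CPM under traffic noise. Its log2 fold change was -0.88 ± 1.10, with overlapping groups. The Rubisco genes RBCS1A, at 2566 ± 701 and 1787 ± 364 CPM, and RCA, at 90.4 ± 37.5 and 72.3 ± 5.81 CPM, also had values below 0. The oleosin gene OLEO1 was at 1.09 ± 1.45 and 2.13 ± 0.137 CPM, and OLEO3 at 43.2 ± 18.0 and 46.9 ± 23.9 CPM. Of the 5 tested root markers 4 had values above 0 and 1 below (median 0.27). MYB36 was at 13.1 ± 4.82 and 23.05 ± 0.951 CPM, AT5G66390, a peroxidase gene, at 154 ± 12.4 and 193 ± 17.7 CPM, and the aquaporin gene TIP2;3 at 2104 ± 328 and 2530.3 ± 314 CPM. AT5G17820, at 24.4 ± 21.2 and 18.0 ± 4.57 CPM, was the 1 below 0, and CASP1 was level at 287 ± 51.7 and 296 ± 35.0 CPM. All 5 tested raffinose family enzymes had values above 0 (median 0.58), as did 52.5% of all loci, and 0 had an unadjusted edgeR p under 0.05. The smallest p was that of the galactinol synthase gene GolS1, at 10.4 ± 3.75 and 17.3 ± 2.73 CPM (log2 fold change 0.74 ± 0.43). The alpha-galactosidase genes AGAL2, at 2.99 ± 3.64 and 6.18 ± 2.26 CPM (log2 fold change 1.05 ± 1.36), and AT3G56310, at 47.4 ± 15.8 and 56.2 ± 16.5 CPM, came next. AT1G56220, the 1 other tested gene of the dormancy-associated family, was at 909, 1059 and 722 CPM in the 3 controls, against 1629, 1371 and 819 CPM under traffic noise. Like DYL1, it was lowest in replicate 3 among the traffic noise libraries. Of 9 genes that sugar induces, 5 were tested, with 2 values above 0 and 3 below and a median of -0.24. SUS1, a sucrose synthase gene, was at 14.6 ± 9.52 and 7.28 ± 1.13 CPM (log2 fold change -1.003 ± 0.541). SUS3, also a sucrose synthase gene, was at 5.21 ± 4.35 and 10.04 ± 4.24 CPM, and TPS5 at 11.8 ± 3.87 and 8.17 ± 1.34 CPM. BAM5, a sugar-induced beta-amylase gene, had 0 counts in all 6 libraries, which allows up to 0.144 to 0.171 CPM per library at 3 counts (counting error only).

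**Figure D4:**
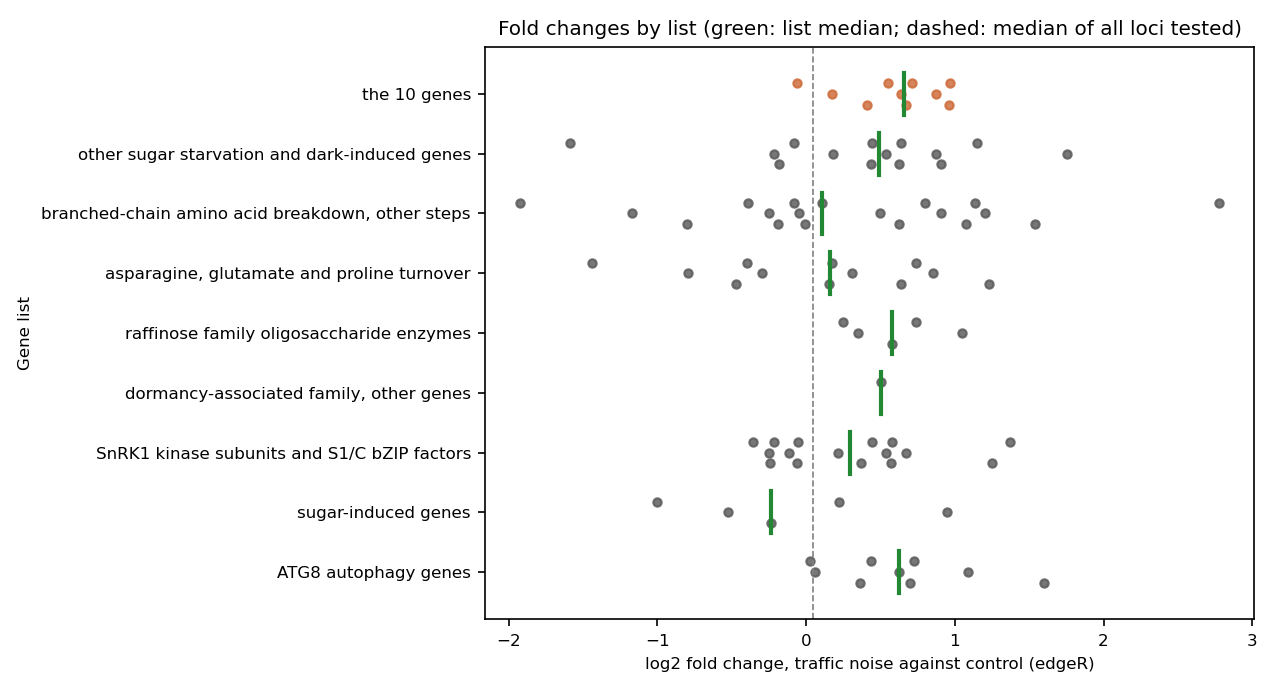
Log2 fold changes (traffic noise against control, edgeR) of the 10 genes and of the tested genes in each list, 1 point per gene, with the list median in green and the median of all tested loci, 0.05, as the dashed line. The ATG8 genes all lie above 0, while the lists for branched-chain amino acid breakdown and for asparagine, glutamate and proline turnover spread to both sides.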

How the data were processed

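Whole-seedling RNA of 6 libraries, 3 per group, was measured with the Lexogen QuantSeq kit, per the labels' protocols. The authors deposited raw counts per gene symbol, whole numbers with no normalization. Bowtie2, bedtools and the build TAIR10 are named in the submitters' processing notes, without versions or roles. Treatment of reads with several matches and of strand is not given in the sources used here. Each table had 33139 rows, of which 218 without a name (0.0431% to 0.0886% of counts) were left out. Symbols were tied to loci through RefSeq's TAIR10.1 annotation (32488 rows with 1 locus, and 412 rows with a repeated symbol). The counts carry no coordinates, and sequence windows were read from that assembly by its own annotation. Totals of 17540009 to 20780363 counts put a floor of 3 counts at 0.144 to 0.171 CPM.

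Rows were filtered with filterByExpr (19112 kept), scaled by TMM and compared between groups with edgeR's quasi-likelihood F test (robust, threshold 0.05 after Benjamini-Hochberg adjustment). The SE was taken from F (absolute log2 fold change divided by its square root). The common biological coefficient of variation was 0.757. Log2 CPM used a prior count of 2. DESeq2 gave an adjusted p for 4365 loci. The fit was tested on simulated data with larger fold changes than those of the members, in loci whose mean count reached 500. That test does not show how well changes of the members' size are recovered. The members and lists were chosen with earlier results of these data known. The genes named from each list are the 3 tested loci with the smallest edgeR p. DIN4, SEN1, TPS10, BAM5, CAB2, GolS3, AGAL1, AT5G17820, CASP1, SHV2, EXPA7 and LRX1 were added after their values were seen. Likeness was taken for the 3 most abundant members, and windows were printed for the 4 most abundant, read from the genome in place of a promoter table. Alternatives were other scaling, filters, tools, a replicate block and leaving out libraries. No protein sequences were used here. Fits ran in edgeR 4.0.16 under R 4.3.3, with alternatives in limma 3.58.1 or DESeq2 1.42.0; tables and plots used matplotlib 3.10.9 and pandas 2.3.3 (Python 3.11.15).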

Additional observations from a re-analysis of the deposited data

How the results depend on the processing

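Against 0 loci higher and 2 lower in edgeR, there were 1 and 5 without a filter, 0 and 4 where mean counts reached 500, 4 and 8 with limma-voom, 84 and 130 with DESeq2, and 0 lower without organelle loci. Leaving out 1 library gave 0 to 18 higher and 0 to 13 lower in edgeR. Replicate numbers were shared by the groups, and the labels state no pairing. Deviations of same-numbered libraries correlated at r = -0.009, 0.014 and 0.019 over 19112 loci, and those of differently numbered libraries at -0.052 to 0.04. Such values over all loci cannot decide whether same-numbered samples were handled together. A replicate block called 0 higher and 0 lower. DESeq2 called 3 genes of the wider lists (PP2-A13, IVD and CAB1). With DESeq2 and 1 library left out, a choice made after seeing the data, loci higher and lower numbered 82 and 33 without control replicate 1, 721 and 354 without 2, and 113 and 73 without 3. They numbered 58 and 119 without traffic replicate 1, 13 and 69 without 2, and 15 and 86 without 3. On the wider lists there were 0 to 11 and 0 to 2. Members called numbered 0 except without control replicate 2, where edgeR called 1 (DIN2) and DESeq2 4, so the range is 0 to 4. Members with a log2 fold change above 0 numbered 8 to 10 in all 19 alternatives. SIP2 changed sign in 4 of these and GDH1 in 2 of its 18. The median of all loci moved from 0.05 to 0.16 with limma-voom and 0.15 with the replicate block. The cause of these shifts was not tested. The wide spread between 3 libraries per group limits what can be called.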
